A study of Rattus norvegicus with 12 samples.

Results

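Cytochrome P450 enzymes and the enzymes that conjugate their products were examined in kidney cortex of diabetic and nondiabetic male rats. The members were the probe sets, each a group of array oligonucleotides read as 1 signal, whose annotation named a single gene of the Cyp, Ugt, Sult, cytosolic Gst or Mgst families. Cyp4a1, Cyp51, Cyp24a1 and Cyp27b1 were left out of the set. It held 112 probe sets for 101 genes, of 31042 probe sets on the array and 14217 genes named singly there. The rule used gene names and no measured value, but it was chosen with earlier results of these data known. No Ugt1 symbol was among them.

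Kidney cortex of 12 samples was measured, each on 1 array with a single dye, in 4 groups of 3 arrays. The diabetic (DM) rats had intravenous streptozocin, a beta-cell toxin, at 65 mg/kg at 4 or 14 weeks of age, insulin palmitate pellets 3 days later, and tissue taken after 6 weeks of diabetes, at 10 or 20 weeks of age. Nondiabetic (ND) littermates of the same ages received vehicle and a pellet of palmitate vehicle. Diabetes, streptozocin and insulin came together in these groups, and their effects cannot be told apart. The groups in their order of age were thus 10-week DM, 10-week ND, 20-week DM and 20-week ND, and in the labels glucose of the DM rats was 350 to 450 mg/dl. Which rat each array came from is not stated, and the p-values therefore cover the variation among these arrays, which may in part be technical.

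Cytochromes P450 insert oxygen into fatty acids, steroids, retinoids and foreign compounds, with electrons passed on by P450 reductase or cytochrome b5. Conjugating enzymes then attach glutathione (Gst, Mgst), sulfate (Sult) or glucuronic acid (Ugt), which makes the product easier to export. In the kidney these enzymes are concentrated in the proximal tubule, where members of the Cyp2c and Cyp4a subfamilies also turn arachidonic acid into lipid mediators that act on vessels and salt transport.

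The deposited values were linear signals, and the arrays had been scaled to a common trimmed mean, so every difference is relative to the other transcripts of the array. Probe sets were tested where their geometric mean signal over the 12 arrays passed 70.9, the limit that left out the dimmest 40%; 58 member probe sets of 53 genes passed, of 18625 in all. The dimmest member inside this limit had a geometric mean of 73.1 and the brightest outside it 59.7. A call means a Benjamini-Hochberg adjusted p under 0.05 from limma over all probe sets tested, and ± after a log2 difference is its standard error (SE). All 14 proximal tubule markers were tested and none was called in any comparison. The marker lists of other cell types did move in part: over both ages 2 of 5 podocyte markers and 1 of 5 endothelial markers were called lower in DM rats, and 1 of 3 leukocyte and 1 of 5 collecting duct markers were called higher. Among all probe sets tested, 2.34% were called lower and 2.14% higher there. The summed signal of 5 fat markers, of which 3 were too dim to test, was 474 to 656 in 10-week DM rats and 261 to 365 in 10-week ND rats, and 579 to 907 in 20-week DM rats and 291 to 348 in 20-week ND rats. The part of these cell types in the results was not tested, and in whole cortex fewer cells of a type and less RNA per cell cannot be told apart. The label of 10-week DM replicate 1 names a vehicle pellet, and 20-week ND replicate 1 had the highest Gapdh 3'/5' ratio of the 12 arrays (2.09, against 1.41 to 1.75 on the others). With both of these doubted arrays left out, several calls over both ages were lost. They were those of Mgst1, Cyp26b1, Cyp2d4 (both probe sets), Papss2, Cyb5a, Cyb5b, Pgrmc1, Ephx1 and Sts. The 20-week calls of Mgst1, Gsta3, Papss1, Papss2, Ugp2, Nr1h4 and Abcc2 were lost too, as were the 10-week calls of Gsta3 and Akr1b8.

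Over both ages together, 10 member probe sets of 9 genes were called, 9 higher and 1 lower in DM rats, among 58 tested. Of all 18625 probe sets, 4.47% were called in this comparison, 2.14% higher and 2.34% lower. The genes that rose were Sult1a1, Cyp26b1, Gsta3, Cyp2e1, Cyp2d4 (both of its probe sets), Gstz1, Mgst1 and Gsta4, and the gene that fell was Sult1c2. The log2 difference was positive for 42 of the 58 tested member probe sets and negative for 16, with a median of 0.21, beside -0.01 over all probe sets tested. At 20 weeks alone 6 were called, 5 higher (Sult1a1, Cyp2e1, Gstz1, Gsta3, Mgst1) and 1 lower (Sult1c2), where 2.84% of all probe sets were called, 1.22% higher and 1.62% lower. At 10 weeks alone Gsta3 was the 1 member called, higher, where 0.306% of all were, 0.123% higher and 0.183% lower. Member medians were 0.29 at 10 weeks and 0.10 at 20 weeks, against -0.02 and -0.0043 over all. Without both doubted arrays the count over both ages was 6, with 5 higher, and the count at 10 weeks was 0. Single arrays also moved these summaries: the 10-week median was 0.18 without 10-week ND replicate 1, and the 20-week median was 0.23 without 20-week DM replicate 3.

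Differences short of a call also lay mostly on the positive side at 10 weeks. At an unadjusted limma p under 0.05, 19 members were higher and 1 lower at 10 weeks, beside 5.18% and 5.67% of all probe sets. At 20 weeks the counts were 12 and 5, beside 8.48% and 8.33%, and over both ages 22 and 5, beside 8.57% and 9.33%. The 10-week count of 20 was 11 without 10-week DM replicate 1, 11 without both doubted arrays and 14 without 10-week ND replicate 1. All 3 DM arrays lay above all 3 ND arrays for 14 members at 10 weeks (7.47% of all probe sets) and below them for 1 (9.52%). At 20 weeks they lay above for 12 (10.1%) and below for 6 (10.9%). The summed signal of the 58 tested members was 267704 to 297288 in DM rats and 228601 to 251773 in ND rats at 10 weeks, and 272910.0 to 280556 in DM rats and 233961 to 261554 in ND rats at 20 weeks; the bright members set these sums, which were not tested.

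**Figure D1:**
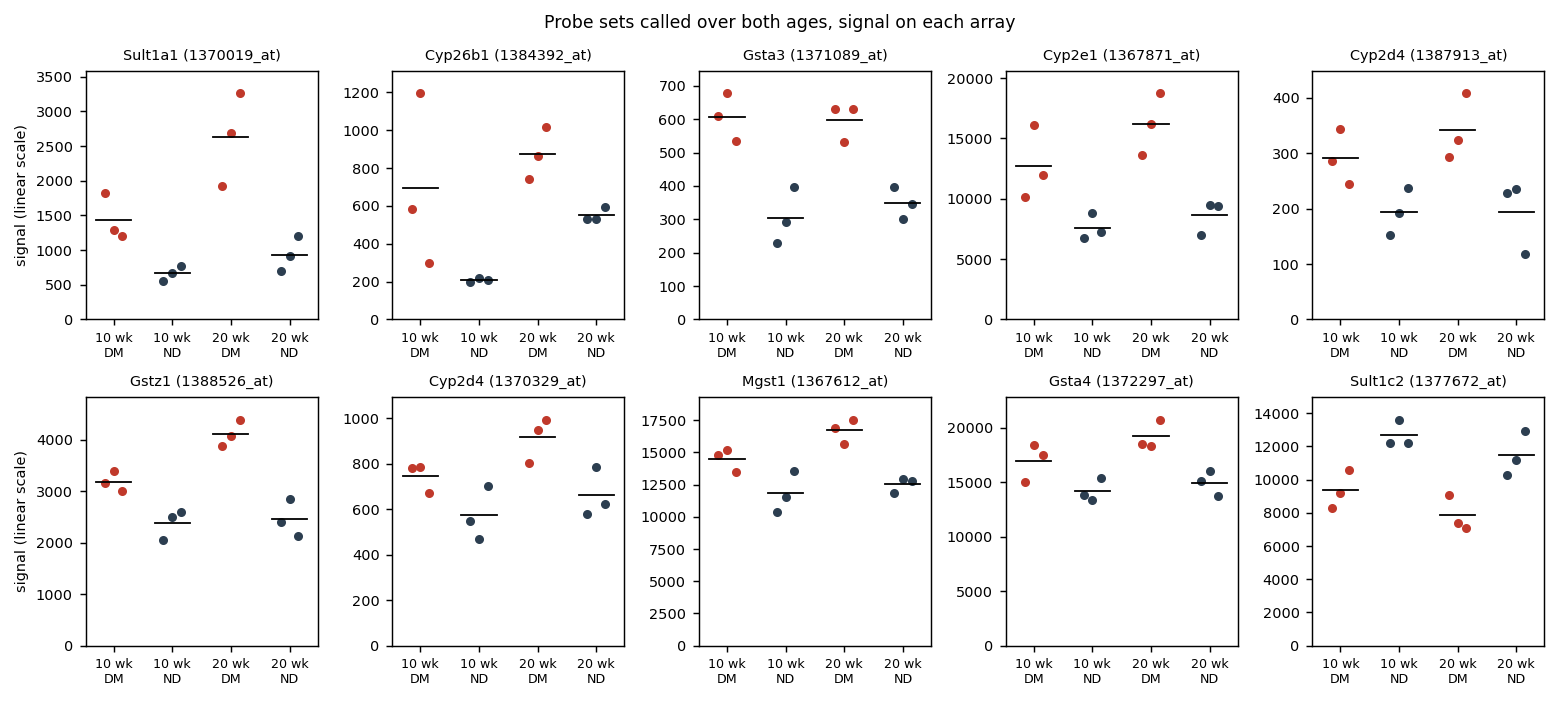
Signal of the 10 member probe sets called over both ages, on a linear axis from 0, with 1 point per array and a line at the mean of each group of 3 (DM in red, ND in dark blue). Sult1a1, Gsta3, Cyp2e1, Gstz1, Cyp26b1 and the dimmer Cyp2d4 probe set lie above the ND arrays on every DM array of the same age, and Sult1c2 lies below them.

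The promoters of these genes are shown for the members that rose and whose window holds a match to a motif of the electrophile response (ARE) or of the aryl hydrocarbon receptor (XRE), the classic switches of conjugating enzymes. The windows are RefSeq sequence of build GRCr8, from 250 bases before to 50 bases after the gene's annotated start, on the gene's own strand, with matches in capitals. ARE was searched as TGACNNNGC and XRE as GCGTG, both on either strand.
Gsta3, plus strand, chr9:31154739-31155038: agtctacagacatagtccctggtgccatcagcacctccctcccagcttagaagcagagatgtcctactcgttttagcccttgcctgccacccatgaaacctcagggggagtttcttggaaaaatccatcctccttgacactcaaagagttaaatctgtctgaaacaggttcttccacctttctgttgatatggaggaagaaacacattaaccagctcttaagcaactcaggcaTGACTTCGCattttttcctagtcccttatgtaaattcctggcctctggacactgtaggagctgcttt
Gstz1, plus strand, chr6:112525356-112525655: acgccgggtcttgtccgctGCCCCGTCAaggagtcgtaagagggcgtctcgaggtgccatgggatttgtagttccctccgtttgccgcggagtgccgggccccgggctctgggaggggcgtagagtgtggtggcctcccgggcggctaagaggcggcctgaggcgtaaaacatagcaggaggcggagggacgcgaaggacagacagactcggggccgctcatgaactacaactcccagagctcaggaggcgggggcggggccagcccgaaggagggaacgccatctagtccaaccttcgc
Cyp26b1, minus strand, chr4:118616127-118616426: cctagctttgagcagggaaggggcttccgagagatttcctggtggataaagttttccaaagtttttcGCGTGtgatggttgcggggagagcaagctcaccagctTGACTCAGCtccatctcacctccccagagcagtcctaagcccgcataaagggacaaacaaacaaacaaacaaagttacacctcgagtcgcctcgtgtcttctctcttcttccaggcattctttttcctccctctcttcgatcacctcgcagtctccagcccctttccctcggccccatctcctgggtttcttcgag
Gsta4, plus strand, chr8:87947015-87947314: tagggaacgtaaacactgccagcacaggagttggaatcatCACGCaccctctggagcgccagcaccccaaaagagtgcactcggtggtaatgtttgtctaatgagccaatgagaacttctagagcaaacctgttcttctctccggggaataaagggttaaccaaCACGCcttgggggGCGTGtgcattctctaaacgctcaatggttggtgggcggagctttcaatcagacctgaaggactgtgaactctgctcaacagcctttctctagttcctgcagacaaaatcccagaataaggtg
Counted to its leftmost base, the ARE match began at -17 from the start in Gsta3, at -231 in Gstz1 and at -146 in Cyp26b1. XRE letters began at -183 in Cyp26b1 and at -210, -86 and -73 in Gsta4. A second Gsta3 entry, chr9:31166793-31167092, held no ARE and 1 XRE match, at -233. Among the 10 promoter entries of the 9 called genes, 3 held an ARE and 3 an XRE match, while the windows of Sult1a1, Cyp2e1, Cyp2d4, Mgst1 and Sult1c2 held neither. Among 86 member promoters the numbers were 10 and 22, and of 33469 rat promoters 12.1% held the ARE and 29.7% the XRE letters. The DR1 motif of PPAR and Hnf4a was in 0.0538% of all promoters and the Hnf1 motif in 0.108%, on either strand, and no member window held either. A match describes the letters only.

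Among the Cyp1 to Cyp3 families, 14 of 34 probe sets were tested and 3 were called over both ages, all higher. Cyp2e1 (1367871_at), which oxidises ethanol, acetone and other small molecules, had signals at 10 weeks of 10143, 16093 and 11972 on the diabetic arrays, against 6721, 8816 and 7286 on the nondiabetic arrays. At 20 weeks Cyp2e1 read 13644, 16234 and 18748 on the diabetic arrays, against 6999, 9481 and 9371 on the nondiabetic arrays. Every DM array lay above every ND array of its age. The log2 difference was 0.82 ± 0.12 over both ages (adjusted p = 0.00296), 0.73 ± 0.18 at 10 weeks (adjusted p = 0.132) and 0.91 ± 0.18 at 20 weeks (adjusted p = 0.0186), with group means of 16209 ± 2552 in 20-week DM rats and 8617 ± 1402 in 20-week ND rats (SD, n = 3 each). The 20-week call was lost without 20-week DM replicate 2, 20-week DM replicate 3 or 20-week ND replicate 1 (highest adjusted p over the alternatives 0.0817), and the call over both ages held in all 23 alternatives.

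Cyp2d4, a drug-oxidising enzyme also found in rat brain, rose on both of its probe sets. The dimmer one (1387913_at) read 287, 345 and 244 on the diabetic arrays, against 153, 193 and 237 on the nondiabetic arrays at 10 weeks. At 20 weeks it read 294, 324 and 409 on the diabetic arrays, against 228, 236 and 119 on the nondiabetic arrays, again without overlap. The brighter one (1370329_at) overlapped at 10 weeks, with 669 to 786 in diabetic rats and 471 to 704 in nondiabetic rats, and not at 20 weeks, with 803 to 994 in diabetic rats and 579 to 784 in nondiabetic rats. Over both ages the log2 differences were 0.73 ± 0.19 (adjusted p = 0.0472) and 0.43 ± 0.11 (adjusted p = 0.0498). Both lie just inside the threshold: each was lost without any 1 of the 10-week ND arrays numbered 1 and 2, without any 10-week DM array, without any 20-week DM array and without 20-week ND replicate 3, the brighter one also without 20-week ND replicate 1, and the largest adjusted p over the alternatives was 0.115 for the dimmer and 0.181 for the brighter probe set. Cyp2d2, which hydroxylates debrisoquine in the rat and is close to Cyp2d4 in sequence, differed by 0.26 ± 0.12 (adjusted p = 0.251); cross-binding between near-identical genes such as these was not tested.

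Cyp2c23, the main arachidonic acid epoxygenase of rat kidney and the brightest of the Cyp1 to Cyp3 probe sets, spanned only 1.36-fold from its lowest to its highest array. Its signals were 21826 to 26861 in diabetic rats and 21634 to 25966 in nondiabetic rats at 10 weeks, and 22588 to 28038 in diabetic rats and 20996 to 28602 in nondiabetic rats at 20 weeks. The difference over both ages was 0.03 ± 0.09 (adjusted p = 0.914). Cyp2c11, a steroid hydroxylase best known from male rat liver, had by contrast the widest range of the 58 tested members, 29.9-fold. At 10 weeks it read 769, 114 and 266 on the diabetic arrays, against 78.4, 488 and 1329 on the nondiabetic arrays. Its 20-week signals were 103, 106 and 67.0 on the diabetic arrays, against 501, 2002 and 717 on the nondiabetic arrays. The groups overlapped fully at 10 weeks, whereas at 20 weeks the highest DM array stood at 106 and the lowest ND array at 501. The 20-week difference of -3.31 ± 0.89 did not pass (adjusted p = 0.0705). It passed when 10-week ND replicate 1 or replicate 3 was left out of the fit (adjusted p = 0.0224 and 0.0394) or when only the 20-week groups were fitted (adjusted p = 0.0133). Over both ages it passed without 10-week ND replicate 1 (-2.40, adjusted p = 0.0224, against -1.84 ± 0.63 and adjusted p = 0.133 with all arrays). The other 6 liver markers, among them Alb and Apoa1, were too dim to test.

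The remaining Cyp2 probe sets were not called. Both Cyp2j3 probe sets, for an arachidonic acid epoxygenase, were lower in DM rats without overlap at 20 weeks, at 69.3 to 124 in diabetic rats and 148 to 178 in nondiabetic rats for 1381074_at, with -0.85 ± 0.28 (adjusted p = 0.132). Its relative Cyp2j4 had a positive difference over both ages (0.54 ± 0.23, adjusted p = 0.233), the opposite sign to Cyp2j3. Cyp2s1, an extrahepatic enzyme, had 84.8 to 136 in diabetic rats and 149 to 187 in nondiabetic rats at 20 weeks, with a difference of -0.64 ± 0.25 (adjusted p = 0.224). Cyp1b1, Cyp2f4, Cyp2t1 and Cyp2u1 overlapped between DM and ND at both ages. The 20 dim probe sets of these families included Cyp1a1 and Cyp1a2, the classic aryl hydrocarbon receptor targets, and all Cyp2a, Cyp2b and Cyp3a probe sets, the main drug-oxidising families of liver.

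In the Cyp4 family, whose enzymes hydroxylate fatty acids at or near their last carbon, 8 of 11 probe sets were tested and none was called in any of the 5 comparisons, while 4 had an unadjusted limma p under 0.05 over both ages, all positive. Among all probe sets tested, 8.57% were higher at that limit. Cyp4a8, which in rat kidney responds to androgens, was read by a pair of probe sets that behaved alike. The first (1368607_at) gave 14277, 11736 and 10979.7 on the diabetic arrays, against 7864, 7252 and 9255 on the nondiabetic arrays at 10 weeks. The second (1393894_at) gave 9198, 8085 and 8492 on the diabetic arrays, against 5247, 4465 and 5893 on the nondiabetic arrays. Neither overlapped at 10 weeks, and the differences were 0.60 ± 0.19 (adjusted p = 0.259) and 0.73 ± 0.21 (adjusted p = 0.214). At 20 weeks the groups overlapped, with differences of 0.08 ± 0.19 and 0.0042 ± 0.21, and signals of 5605 to 10312 in diabetic rats and 6969 to 8352 in nondiabetic rats for the first. The interaction, the 10-week difference minus the 20-week difference, was 0.73 ± 0.30 for the second probe set (unadjusted p = 0.0293, adjusted p = 0.571). One array weighs on this: without 20-week DM replicate 3, the lowest of its group on both, both probe sets were called higher over both ages (adjusted p = 0.0144 and 0.00869), and the second also at 10 weeks (adjusted p = 0.0376).

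Cyp4a3, another arachidonic acid hydroxylase and the brightest of the family, had 16437 to 23361 in diabetic rats and 14508 to 15035 in nondiabetic rats at 10 weeks, without overlap, and 12826 to 21008 in diabetic rats and 10558 to 17612 in nondiabetic rats at 20 weeks. Its difference over both ages was 0.33 ± 0.15 (adjusted p = 0.25). Cyp4f1, which inactivates leukotriene B4 in the rat, differed by 0.33 ± 0.11 (adjusted p = 0.141) and was called without 10-week DM replicate 3, the lowest of its group (adjusted p = 0.00389). Cyp4b1 and Cyp4f6 had differences of -0.04 and 0.07 over both ages.

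Of the other cytochromes, which act on sterols, steroids and retinoids, 5 of 17 probe sets were tested, and all 5 had positive differences over both ages. Cyp26b1 (1384392_at), which clears retinoic acid, read 584, 1196 and 300.0 on the diabetic arrays, against 197, 218 and 207 on the nondiabetic arrays at 10 weeks. Cyp26b1 read 741, 864 and 1018 on the diabetic arrays, against 528, 529 and 592 on the nondiabetic arrays at 20 weeks. The groups did not overlap at either age, although the 3 DM arrays of 10 weeks spread widely, from 300.0 to 1196, while the ND arrays lay within 197 to 218. The difference was 1.09 ± 0.25 over both ages (adjusted p = 0.0259), 1.52 ± 0.35 at 10 weeks (adjusted p = 0.116) and 0.66 ± 0.35 at 20 weeks (adjusted p = 0.368). The call over both ages was lost in 9 of 23 alternatives, including those without 10-week DM replicate 1, 10-week ND replicates 1 or 2, 20-week DM replicates 2 or 3, 20-week ND replicates 1 or 2 and both doubted arrays (highest adjusted p 0.0939). Without 10-week DM replicate 3 the 10-week difference was 2.01 and passed (adjusted p = 0.0108). A second Cyp26b1 probe set, 1376667_at, was too dim to test, and Cyp26a1, its relative, was not called (0.17 ± 0.23, adjusted p = 0.769).

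Cyp11a1, which starts steroid synthesis by cleaving the side chain of cholesterol, read 187, 329.5 and 598 on the diabetic arrays, against 151, 117 and 174 on the nondiabetic arrays at 20 weeks, without overlap. The difference of 1.20 ± 0.36 did not pass (adjusted p = 0.105) and passed without 20-week DM replicate 1 (adjusted p = 0.0306), as did the difference over both ages (1.07, adjusted p = 0.0206, against 0.87 ± 0.26 and adjusted p = 0.0801 with all arrays). Of 6 adrenal cortex markers on the array 5 were too dim to test. The summed signal of all 6 was 339 to 425 in 20-week DM rats and 449 to 795 in 20-week ND rats. At 10 weeks it was 375 to 566 in DM rats and 270 to 616 in ND rats, with overlap. The 1 tested marker differed by -0.92 at 20 weeks and by 0.43 at 10 weeks, and was not called. A part of adrenal tissue in the Cyp11a1 values was not tested. Cyp27a1, the mitochondrial sterol hydroxylase, differed by 0.34 ± 0.14 (adjusted p = 0.202), and Cyp20a1, an enzyme of unknown substrate and the brightest of these, by 0.20 ± 0.10 (adjusted p = 0.292). The steroid and bile acid enzymes Cyp11b1, Cyp17a1, Cyp19a1, Cyp21a1, Cyp7a1, Cyp7b1 and Cyp8b1 were too dim to test.

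**Figure D2:**
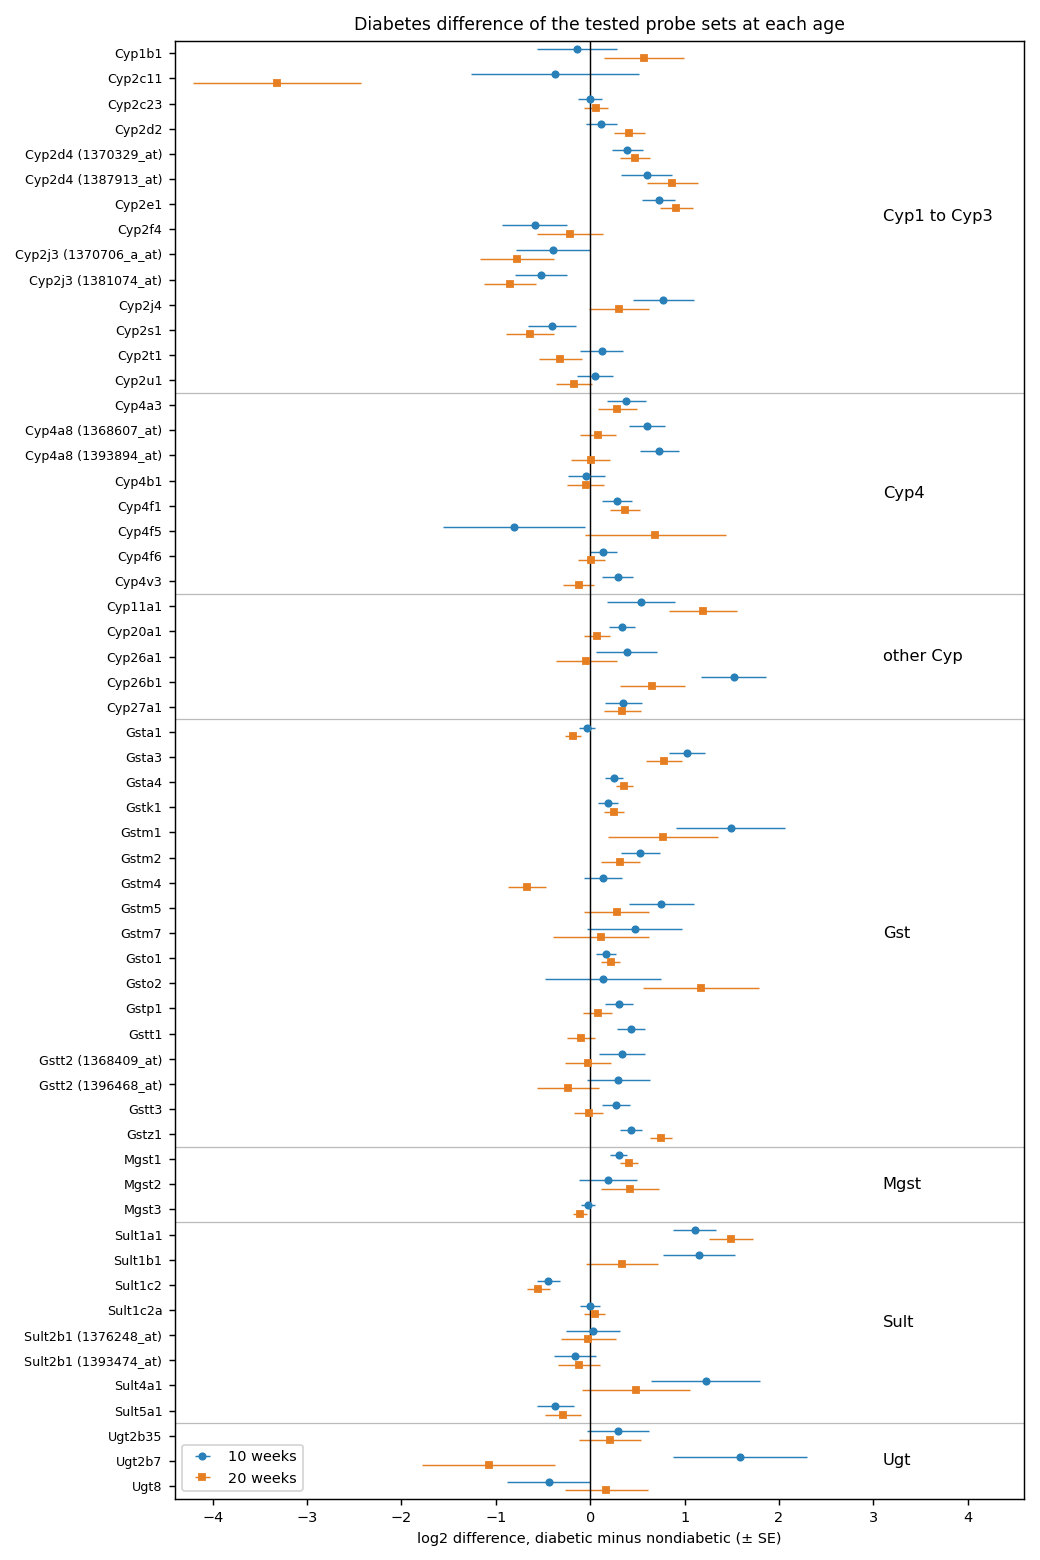
Log2 difference of DM minus ND with its SE for each of the 58 tested member probe sets, grouped by family, at 10 weeks (blue circles) and 20 weeks (orange squares). Sult1a1, Gsta3, Cyp2e1 and Gstz1 lie to the right of 0 at both ages and Sult1c2 to the left, while Cyp2c11 and Ugt2b7 carry wide error bars.

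Among the cytosolic glutathione transferases 17 of 21 probe sets were tested, and 3 were called over both ages, all higher. Gsta3 (1371089_at), of the alpha class, read 609.7, 678 and 534 on the diabetic arrays, against 228, 291 and 396 on the nondiabetic arrays at 10 weeks. The 20-week signals of Gsta3 were 629.6, 531 and 629 on the diabetic arrays, against 398, 300.0 and 345 on the nondiabetic arrays. No DM array overlapped an ND array of its age. The difference was 0.90 ± 0.13 over both ages (adjusted p = 0.00246), 1.02 ± 0.19 at 10 weeks (adjusted p = 0.0463) and 0.78 ± 0.19 at 20 weeks (adjusted p = 0.0462). The single-age calls lay at the edge of the threshold, and the 10-week call was lost in 18 of 24 alternatives, among them all that left out 1 array except 10-week ND replicate 3. The 20-week call was lost in 17 of 24, among them all that left out 1 array except 10-week ND replicates 1 and 3 (highest adjusted p 0.196 and 0.162 at the 2 ages). The call over both ages held in all 23.

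Gsta4, the alpha-class enzyme that removes the lipid peroxidation product 4-hydroxynonenal, had 14983 to 18404 in diabetic rats and 13391 to 15388 in nondiabetic rats at 10 weeks and 18313 to 20752 in diabetic rats and 13751 to 16000.1 in nondiabetic rats at 20 weeks, apart at 20 weeks only. Its rise over both ages was small, at 0.31 ± 0.07 (adjusted p = 0.0223). The call was lost without 10-week DM replicates 2 or 3, 10-week ND replicates 1 or 2, or 20-week DM replicate 3. It was also lost without an intensity trend (adjusted p = 0.0747). After quantile normalization the difference was 0.21 and not called (adjusted p = 0.117, the highest over the alternatives). The 20-week difference missed the threshold (adjusted p = 0.064) and passed without 10-week DM replicate 1 (adjusted p = 0.0482). Gsta1, a major alpha enzyme, stayed within a 1.34-fold range over all 12 arrays, with a difference of -0.11 ± 0.06 (adjusted p = 0.39). The alpha class thus held a member that rose by 1.87-fold, one that rose by 1.24-fold and one that was not called.

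Gstz1, the maleylacetoacetate isomerase of tyrosine breakdown, read 3157, 3397 and 2995 on the diabetic arrays, against 2045, 2489.9 and 2586 on the nondiabetic arrays at 10 weeks. At 20 weeks its signals were 3886, 4065 and 4390.4 on the diabetic arrays, against 2400.1, 2855 and 2136 on the nondiabetic arrays. The groups did not overlap at either age. The difference was 0.59 ± 0.08 over both ages (adjusted p = 0.0017) and 0.75 ± 0.12 at 20 weeks (adjusted p = 0.00568), both held in every alternative, and 0.43 ± 0.12 at 10 weeks (adjusted p = 0.184).

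The 5 tested mu-class probe sets were not called. Their differences were all positive at 10 weeks, from 0.14 to 1.49, and 4 of the 5 were positive at 20 weeks. Gstm1 read 2491, 485 and 1019.5 on the diabetic arrays, against 298, 240.1 and 780.4 on the nondiabetic arrays at 10 weeks, a 1.49 ± 0.58 difference with overlap (adjusted p = 0.362), and ranged 11.9-fold over all arrays. Gstm2, whose groups were apart at 10 weeks, had 552 to 995 in diabetic rats and 491 to 528 in nondiabetic rats there and a difference of 0.43 ± 0.14 over both ages (adjusted p = 0.13). Gstm4 had a negative difference at 20 weeks, with 319.6, 424 and 354 on the diabetic arrays, against 503, 720.1 and 533 on the nondiabetic arrays. Its difference was -0.67 ± 0.20 at 20 weeks (adjusted p = 0.109) and 0.14 ± 0.20 at 10 weeks, and its interaction of 0.80 ± 0.29 had an unadjusted p of 0.0159 (adjusted p = 0.531).

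The theta class, for small halogenated molecules, had 4 probe sets of 3 genes, and none was called. Their differences were all positive at 10 weeks (0.27 to 0.43) and all negative at 20 weeks (-0.23 to -0.02). Gstt1 read 2434, 2121 and 2419 on the diabetic arrays, against 1353, 1962 and 1922 on the nondiabetic arrays at 10 weeks, without overlap, and 1916 to 2270.2 in diabetic rats and 1864 to 2459 in nondiabetic rats at 20 weeks, with overlap; its interaction was 0.52 ± 0.21 (unadjusted p = 0.0268, adjusted p = 0.565). Gstt3, the brightest of the class, had 1 low array, 10-week ND replicate 1, at 9584, while the other 11 arrays lay between 14863 and 17935. Gstt1 was also lowest on that array, at 1353, and the array enters the 10-week difference and the interaction of both genes. Of the other classes, Gstk1 of mitochondria and peroxisomes differed by 0.22 ± 0.08 (adjusted p = 0.145), Gsto1, which reduces dehydroascorbate, by 0.19 ± 0.07 (adjusted p = 0.188) and Gstp1 by 0.19 ± 0.11 (adjusted p = 0.384).

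The membrane-bound transferases were all tested. Mgst1 (1367612_at), which conjugates and reduces lipid peroxides in the endoplasmic reticulum, read 14820.5, 15225 and 13486 on the diabetic arrays, against 10411, 11537 and 13572 on the nondiabetic arrays at 10 weeks. At 20 weeks it read 16909.5, 15656 and 17556 on the diabetic arrays, against 11892, 12905 and 12791 on the nondiabetic arrays, without overlap. It rose by 0.36 ± 0.07 over both ages (adjusted p = 0.00942) and by 0.41 ± 0.09 at 20 weeks (adjusted p = 0.0372). The 20-week call was lost in each of the 6 fits without a 20-week array, and in those without 10-week DM replicate 1 or 10-week ND replicate 2 (highest adjusted p over the alternatives 0.133). That call was also lost after quantile normalization and after median centring (adjusted p = 0.061 and 0.0938). Over both ages it was lost without both doubted arrays (adjusted p = 0.0567). Mgst3, which can form leukotriene C4, was the steadiest of the 58, with a 1.19-fold range and a difference of -0.07 ± 0.05 (adjusted p = 0.56; 0.0488 and lower in DM rats after quantile normalization). Mgst2 was near the dim limit and was not called (0.30 ± 0.22, adjusted p = 0.511).

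The sulfotransferases held both the largest rise among the called members and the one fall, with 8 of 15 probe sets tested. Sult1a1 (1370019_at), the phenol sulfotransferase, read 1818, 1289.9 and 1206 on the diabetic arrays, against 557, 664 and 766 on the nondiabetic arrays at 10 weeks. At 20 weeks Sult1a1 read 1921, 2693 and 3261 on the diabetic arrays, against 701, 907 and 1195 on the nondiabetic arrays. DM and ND arrays were apart at both ages, with means of 2625 ± 673 in DM rats and 935 ± 248 in ND rats at 20 weeks (SD, n = 3 each). The difference was 1.30 ± 0.16 over both ages, or 2.46-fold (adjusted p = 0.00101), 1.49 ± 0.23 at 20 weeks (adjusted p = 0.00565) and 1.11 ± 0.23 at 10 weeks (adjusted p = 0.075; 0.0493 after median centring). The calls at 20 weeks and over both ages held in every alternative.

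Sult1c2 (1377672_at), of a subfamily abundant in rat kidney, fell. It read 8295, 9202 and 10601 on the diabetic arrays, against 12217, 13612 and 12208 on the nondiabetic arrays at 10 weeks. At 20 weeks it read 9069, 7364 and 7082 on the diabetic arrays, against 10256, 11199 and 12909.6 on the nondiabetic arrays. No DM array reached the ND range of its age. The difference was -0.50 ± 0.08 over both ages (adjusted p = 0.0049), held in all 23 alternatives, -0.44 ± 0.12 at 10 weeks (adjusted p = 0.178) and -0.55 ± 0.12 at 20 weeks (adjusted p = 0.0292), where it was lost without 20-week DM replicates 2 or 3 or 20-week ND replicates 2 or 3 (highest adjusted p over the alternatives 0.112). Sult1c2a, its close paralog and the brightest sulfotransferase probe set, ranged 1.40-fold over all arrays, with a difference of 0.02 ± 0.08 (adjusted p = 0.919). Sult1b1, which sulfates thyroid hormone, read 7293, 2345 and 5472 on the diabetic arrays, against 2133, 1382 and 2898 on the nondiabetic arrays at 10 weeks, with overlap through 10-week DM replicate 2. Its difference over both ages was 0.74 ± 0.27 (adjusted p = 0.157), and without that array it was called at 0.98 (adjusted p = 0.032). Sult2b1, a cholesterol sulfotransferase, had differences of 0.0047 and -0.14 on its 2 probe sets, and Sult5a1 one of -0.33 ± 0.14 (adjusted p = 0.227). Sult1e1 and the Sult2a genes, for estrogen and hydroxysteroids, were too dim to test.

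Of 11 glucuronosyltransferase probe sets 3 were tested and none was called in any comparison; 1 had an unadjusted limma p under 0.05 at 10 weeks and none at 20 weeks or over both ages. Ugt2b35, the brightest, read 16666, 7411 and 7716 on the diabetic arrays, against 5401, 8632 and 13203 on the nondiabetic arrays at 20 weeks and overlapped at both ages, with 0.25 ± 0.23 over both (adjusted p = 0.638). Ugt2b7 read 1903, 403 and 1118 on the diabetic arrays, against 918, 180.2 and 191 on the nondiabetic arrays at 10 weeks. At 20 weeks it read 209, 276 and 268 on the diabetic arrays, against 1021, 709 and 201 on the nondiabetic arrays. The groups overlapped at both ages and the differences had opposite signs, 1.59 ± 0.71 and -1.08 ± 0.71, with an interaction of 2.66 (unadjusted p = 0.0196, adjusted p = 0.544). Ugt8, which makes galactosylceramide, was near the dim limit (-0.14 ± 0.31, adjusted p = 0.88).

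The ages were compared through the interaction. No member was called, and none of the 18625 probe sets was (0.00%, limma); at an unadjusted p under 0.05, 5 members stood, beside 7.95% of all probe sets, all 5 positive (3.32% of all) and 0 negative (4.63%). These were Cyp2c11 (2.94 ± 1.26), Ugt2b7, Gstm4, 1 Cyp4a8 probe set and Gstt1. That count of 5 rested on single arrays: it was 1 without 10-week DM replicate 1, 1 without both doubted arrays, 2 without 20-week ND replicate 1 and 3 without 10-week ND replicate 2. The differences at the 2 ages had the same sign for 42 of 58 members, or 72.4%, beside 57.2% of all probe sets tested. DM arrays were apart from ND arrays at both ages in the same direction for 7 member probe sets, 6 higher (background 2.13%) and 1 lower (2.59%), and in opposite directions for 0 (0.601%).

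Age in ND rats, 20 minus 10 weeks, gave no member call and no call among all probe sets (0.00%, limma), with 8 members at an unadjusted p under 0.05 beside 8.61% of all, 7 higher (4.38%) and 1 lower at 20 weeks (4.23%). That count of 8 was 15 without 10-week ND replicate 3 and 5 without 20-week ND replicate 2. Without 10-week ND replicate 3 or 20-week ND replicate 3, 9 of all probe sets were called, none of them a member. The ND arrays of 20 weeks lay above those of 10 weeks for 4 members (6.36% of all) and below them for 1 (5.70%). Cyp26b1 had the lowest p of the members, with 528, 529 and 592 at 20 weeks and 197, 218 and 207 at 10 weeks, a difference of 1.41 ± 0.35 without overlap (adjusted p = 0.4). Gstm4 followed with 503, 720.1 and 533 at 20 weeks and 332, 315 and 408 at 10 weeks (0.72 ± 0.20, adjusted p = 0.455), also apart. Cyp4v3, a fatty acid hydroxylase, differed by 0.49 ± 0.16 (adjusted p = 0.496).

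Members varied within groups more than most probe sets, with a median within-group SD of 0.286 on the log2 scale against 0.224 over all tested; 13 of 58 exceeded 0.5 (22.4%), beside 10.6% of all. On 1 array, 10-week ND replicate 1, several members and several proximal tubule markers were low together. Cyp2c11 was 78.4 there, Cyp2j4 139 and Gstm7 119.8, against 336 and 375 for Cyp2j4 and 365 and 488 for Gstm7 on ND replicates 2 and 3. The amino acid transporter Slc7a13 of the late proximal tubule read 332 on that array, against 11113 and 19612 on ND replicates 2 and 3. The proximal tubule peptidase Mme read 532 there, against 2073 and 5206. Lrp2 and Slc34a1, also proximal tubule markers, read 21596 and 27459.5 there. The summed signal of all 14 proximal tubule markers was 163918 to 193153 in 10-week ND rats and 186319 to 193132 in 10-week DM rats. Low Cyp2c11 in 20-week DM rats went with low Slco1a1, an organic anion transporter. Slco1a1 read 274, 134 and 33.4 on the diabetic arrays, against 783, 2404 and 1230.3 on the nondiabetic arrays (-3.63 ± 1.29, adjusted p = 0.172). Slc7a13 overlapped between these groups, with 17291, 10126 and 9057 on the diabetic arrays, against 10228, 16235 and 17088 on the nondiabetic arrays. Its diabetic values of 10126 and 9057 lay below every nondiabetic one, and that of 17291 lay above every one. The part of tissue composition in these values was not tested.

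**Figure D3:**
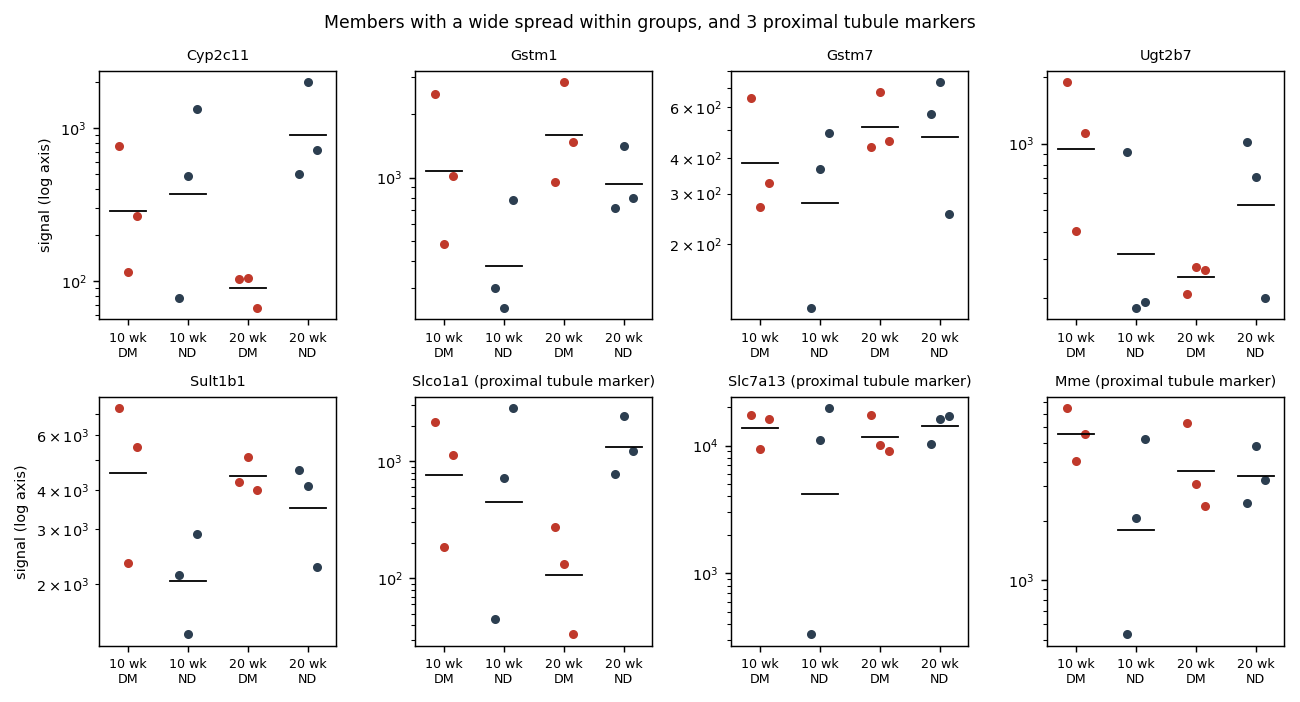
Signal per array on a log axis for 5 members with a wide spread within groups and for 3 proximal tubule markers, with a line at the geometric mean of each group of 3 (DM in red, ND in dark blue). Cyp2c11 and Slco1a1 are low in the 20-week DM rats, and the 10-week ND group holds 1 array that is low in Cyp2c11, Gstm7, Slco1a1, Slc7a13 and Mme.

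Genes that supply these enzymes were read on 1 probe set per gene, the brightest. Beside the counts of these lists, 4.47% of all probe sets were called over both ages and 2.84% at 20 weeks. Of 12 cofactor genes, 2 rose and 1 fell over both ages, and the same 3 were called at 20 weeks; the list median was 0.11 over both ages. The 3 included both enzymes that make the sulfate donor PAPS, and these moved apart. Papss2 read 2217, 2221 and 2332 on the diabetic arrays, against 1534, 1785 and 1356 on the nondiabetic arrays at 20 weeks. Papss1 read 1967, 2103 and 1918 on the diabetic arrays, against 2810.4, 3110.1 and 2489 on the nondiabetic arrays at 20 weeks. Neither overlapped there, and the differences over both ages were 0.42 ± 0.09 for Papss2 (adjusted p = 0.0227) and -0.36 ± 0.07 for Papss1 (adjusted p = 0.0129). Ugp2, which makes UDP-glucose, the precursor of the glucuronic acid donor, rose by 0.33 ± 0.06 (adjusted p = 0.00773), while Ugdh, the next enzyme, was not called (-0.13 ± 0.08, adjusted p = 0.405). Among the genes of glutathione supply none was called; Gsr, glutathione reductase, had the lowest p (-0.37 ± 0.13, adjusted p = 0.145), and Gclc, of glutathione synthesis, was 1688 on 10-week ND replicate 1, against 11491 and 20379 on replicates 2 and 3.

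Of 6 electron donor genes, 2 rose and 1 fell over both ages, with a list median of 0.10. Cyb5a, the cytochrome b5 of the endoplasmic reticulum, had 10627 to 12097 in diabetic rats and 8126 to 9952 in nondiabetic rats at 10 weeks and 10711 to 11886 in diabetic rats and 8671 to 10233 in nondiabetic rats at 20 weeks, apart at both ages (0.26 ± 0.07, adjusted p = 0.0497). Cyb5b, the form of the outer mitochondrial membrane, fell, with 2203 to 2901 in diabetic rats and 3058 to 3559 in nondiabetic rats at 10 weeks and 1948 to 2453 in diabetic rats and 2558 to 2903 in nondiabetic rats at 20 weeks (-0.34 ± 0.08, adjusted p = 0.0345). Pgrmc1, a heme protein that binds P450 enzymes, rose by 0.20 ± 0.05 (adjusted p = 0.0394). Por, the P450 reductase, was not called (0.02 ± 0.10, adjusted p = 0.939).

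**Figure D4:**
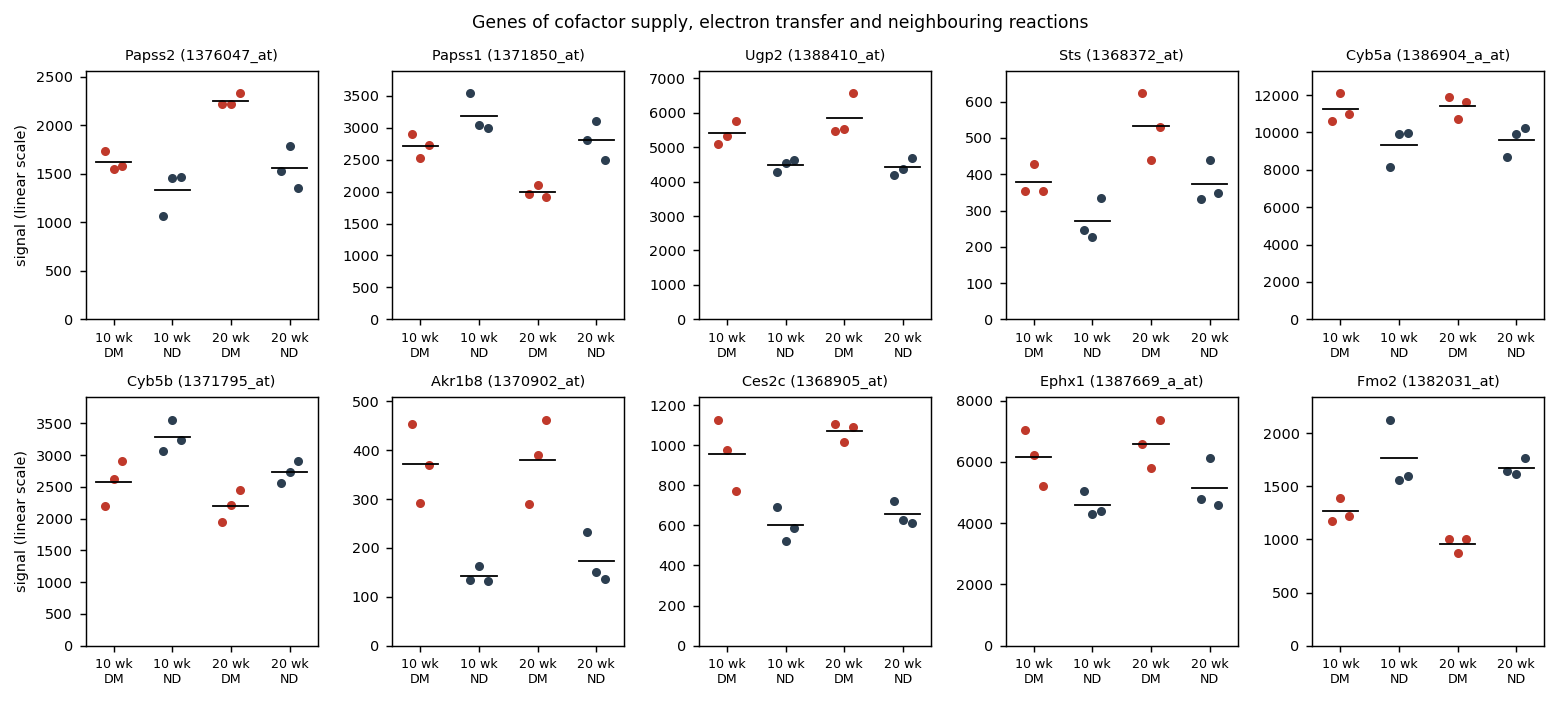
Signal per array on a linear axis from 0 for 10 called genes of cofactor supply, electron transfer and neighbouring reactions, with a line at the mean of each group of 3 (DM in red, ND in dark blue). At 20 weeks DM arrays lie above ND arrays for Papss2 and below them for Papss1, and at both ages above them for Cyb5a and below them for Cyb5b.

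Among 17 genes of other oxidation and hydrolysis, 3 rose and 1 fell over both ages, with a list median of 0.20. Ces2c, a carboxylesterase, read 1128, 976 and 771 on the diabetic arrays, against 692, 524 and 588 on the nondiabetic arrays at 10 weeks, and 1016 to 1107 in diabetic rats and 614 to 723 in nondiabetic rats at 20 weeks, without overlap at either age (0.69 ± 0.10, adjusted p = 0.00243). Ephx1, the microsomal epoxide hydrolase that opens epoxides made by P450 enzymes, rose by 0.39 ± 0.10 (adjusted p = 0.0384), and Akr1b8, an aldo-keto reductase, by 1.25 ± 0.17 (adjusted p = 0.00155). Fmo2, a flavin monooxygenase, fell, with 1007, 874 and 1002 on the diabetic arrays, against 1644, 1615 and 1765 on the nondiabetic arrays at 20 weeks (-0.64 ± 0.09 over both ages, adjusted p = 0.00152), while its relative Fmo5 had a positive difference short of a call (0.38 ± 0.10, adjusted p = 0.0605). Of 11 genes of deconjugation and of acetyl or methyl transfer, Sts was the 1 called over both ages. Sts, which removes sulfate from steroids and so opposes the sulfotransferases, had 353 to 428 in diabetic rats and 228 to 335 in nondiabetic rats at 10 weeks and 440.5 to 623 in diabetic rats and 331 to 439 in nondiabetic rats at 20 weeks, apart at each age (0.51 ± 0.13, adjusted p = 0.0464).

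Of 24 regulators on the array 16 were bright enough to test, and Ahr, Arnt, Nr1i3 and Ppara were not. Ppard, a fatty acid receptor, fell over both ages, with 352, 226 and 319.7 on the diabetic arrays, against 507, 513 and 523 on the nondiabetic arrays at 10 weeks (-0.60 ± 0.12, adjusted p = 0.0141). Nr1h4, the bile acid receptor, was lower at 20 weeks, with 1897, 1596 and 1979.7 on the diabetic arrays, against 2629.6, 2576 and 3019 on the nondiabetic arrays (-0.59 ± 0.13, adjusted p = 0.0277). Nfe2l2, whose protein binds the electrophile response motif shown above, was not called (0.08 ± 0.07, adjusted p = 0.638), nor was Nr1i2, the pregnane receptor (-0.18 ± 0.13, adjusted p = 0.522). Hnf4a was not called either. After quantile normalization it was called lower in DM rats at 20 weeks (-0.28, adjusted p = 0.0464) and over both ages (-0.23, adjusted p = 0.0164). Among 10 export and uptake carriers, Abcc2, which exports conjugates into urine, rose at 20 weeks, with 553, 847 and 782 on the diabetic arrays, against 417, 493 and 402 on the nondiabetic arrays (0.72 ± 0.17, adjusted p = 0.0421), and none was called over both ages, where 3 were at an unadjusted limma p under 0.05. Of all probe sets 17.9% were at that limit over both ages.

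These list calls differed in how firmly they stood. Over both ages Papss1, Ugp2, Ces2c, Akr1b8, Fmo2 and Ppard kept their calls in all 23 alternatives, Fmo2 did so at 20 weeks as well, and Papss2 lost its call without 10-week DM replicate 1, without 20-week DM replicate 3, without both doubted arrays and without an intensity trend (highest adjusted p 0.0949). The calls of Cyb5a, Pgrmc1, Cyb5b, Ephx1 and Sts lay near the threshold. Cyb5a lost its call without any 1 array except 10-week ND replicate 3 (highest adjusted p over the alternatives 0.131), and Pgrmc1 without any except 20-week DM replicate 2 and 20-week ND replicate 3 (0.141). Cyb5b lost its call in 8 of the 12 fits without 1 array, being kept without 10-week DM replicate 3, 10-week ND replicate 1, 20-week DM replicate 3 or 20-week ND replicate 1 (highest adjusted p 0.0882). Ephx1 likewise lost it in 8, being kept without 10-week DM replicate 3, 10-week ND replicate 1, 20-week DM replicate 2 or 20-week ND replicate 2 (0.153), and Sts in 9, being kept without 10-week ND replicate 3, 20-week DM replicate 2 or 20-week ND replicate 2 (0.132). At 20 weeks Nr1h4 lost its call without any 1 of the 6 arrays of that age (highest adjusted p 0.106), and Abcc2 in 9 of the 12 fits without 1 array, being kept without 10-week ND replicates 2 or 3 or 20-week DM replicate 1 (0.156). Abcc2 was in turn called over both ages without 10-week ND replicate 2 or 20-week DM replicate 1, and Fmo5 without 10-week DM replicate 3 (adjusted p = 0.0463, 0.0162 and 0.0476). The 20-week calls of Papss1, Papss2 and Ugp2 were lost in 5, 9 and 4 of the 12 fits without 1 array, each of them without 20-week DM replicates 2 or 3 and 20-week ND replicate 1.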

How the data were processed

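Transcript levels were measured on 12 arrays, 3 in each of 4 groups. What the authors deposited is 1 linear signal (intensity) per probe set and array, computed in GCOS per the submitters' processing notes; its version is not given in the sources used here. The deposited arrays share a mean of 500.2 after trimming 2% at each end, so a shift of most transcripts one way could not be seen. By the array's annotation 20826 probe sets named 1 gene, 436 several and 9780 none, and 57 were controls and not used. A floor of 1 replaced 424 lower values before log2. The dimmest 40% were left out, and 18625 probe sets were tested with limma 3.58.1 in R 4.3.3 (4 group means, 8 residual degrees of freedom, eBayes with an intensity trend, two-sided), in 5 comparisons. On simulated data with independent noise and known added shifts, the fit returned the mean shifts over both ages. That check holds no array-wide effects and does not bear on the calls reported here. The members, the lists and the rule for named genes were chosen with earlier results of these data known. The rule names every called member, the brightest member of each family (each class of Gst) and that with the smallest p in 3 comparisons, and of the lists every called gene and up to 3 others by smallest p; other genes are named for their role and were chosen after their values were seen. Replicate numbers are in the labels, and the deviations of same-numbered arrays correlated at -0.15 to 0.15. Of 18 such pairs 4 were over 0.1, and 3 of these joined a DM and an ND array of the same age. Such correlations cannot show whether the arrays were paired. The number of arrays limits the precision. Alternatives were quantile and median scaling, other dim limits, an offset of 16, other variance estimates, array weights, fits of 2 groups, a replicate block, the 3'/5' ratio as a covariate, both doubted arrays left out, and each array left out in turn.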

Additional observations from a re-analysis of the deposited data

How the results depend on the processing

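The count of called members over both ages, 10, was 6 without an intensity trend, 6 without both doubted arrays and 6 to 10 with 1 array left out, the lowest without 10-week ND replicate 2. At 20 weeks the count of 6 was 2 without a trend, 3 with the replicate block and 2 to 7 with 1 array left out, with 2 or 3 calls without 20-week DM replicates 2 or 3 or any 20-week ND array. At 10 weeks the count of 1 was 0 after quantile normalization, with no filter, without a trend, with only the groups compared, with the 3'/5' covariate and without both doubted arrays, and 2 after median centring; it was 0 or 1 with 1 array left out. With the replicate block the counts were 1 at 10 weeks, 3 at 20 weeks and 8 over both ages; the call at 10 weeks was then Cyp2e1 (adjusted p = 0.0433) in place of Gsta3. Whether the replicate numbers pair the arrays is not known. Quantile normalization lost the calls over both ages of Gsta4, the dimmer Cyp2d4 probe set, Cyb5a, Pgrmc1 and Ephx1. It also lost the 20-week calls of Mgst1 and Gsta3 and the 10-week call of Gsta3. Median centring lost the calls over both ages of the brighter Cyp2d4 probe set, Cyb5b and Sts, and the 20-week calls of Mgst1, Gsta3 and Papss2. The counts of called members for the interaction and for age were 0 in every alternative run; at an unadjusted p under 0.05 the interaction's 5 members were 9 after median centring and 3 without a trend or with robust eBayes, and the 8 of age were 5 without a trend or when more dim probe sets were dropped. Over the 650 differences of members and list genes, no called difference changed sign, 261 calls were lost and 29 gained among the alternatives, 14300 values kept their direction and side of the threshold, and 650 values that were not called changed sign. The causes of these changes were not tested. Low signal limits Cyp4f5, Gsto2, Sult4a1, Mgst2, Ugt8, Cyp26a1 and the 54 members not tested. Cyp2j3 (97.6 and 121), Cyp2f4 (97.7), Cyp1b1 (106) and Cyp2s1 (131) also had low geometric mean signals, beside the dim limit of 70.9.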
